A study of Mus musculus with 13 samples.

Results

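Nkx6.1 is a homeodomain transcription factor of the ventral neural tube. The regions described here are the Nkx6.1 peaks at which neither of the other ventral factors profiled in the same study, Nkx2.2 and Olig2, had a peak. They were chosen by position: a peak of the Nkx6.1 list belonged to the class when it shared no base with any peak of the Nkx2.2 or the Olig2 list. The class holds 2183 members out of 4094 Nkx6.1 peaks (53.3%, with a Wilson 95% confidence interval of 51.8 to 54.8), and the 4 lists of the study hold 23280 peaks together. Of the other 1911, 1029 overlapped Olig2 alone, 331 overlapped Nkx2.2 alone and 551 overlapped both; they are called shared peaks below. Choosing members by the peak lists fixes that no called Nkx2.2 or Olig2 peak lies on them, so that fact is not a finding.

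In the developing spinal cord, Sonic hedgehog secreted from the ventral midline sets up stripes of progenitors that each express their own set of transcription factors. Nkx6.1 is made broadly across the ventral stripes, Olig2 in the progenitors of motor neurons within that territory, and Nkx2.2 in the stripe next to the midline. The 3 proteins are known mainly as repressors, and cross-repression between such factors sharpens the borders between stripes. The ventral territory therefore contains Nkx6.1-positive cells without the other two factors.

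Chromatin immunoprecipitation and sequencing (ChIP-seq) was done on neural progenitors differentiated in culture from mouse ES (embryonic stem) cells. Cells spent 2 days in suspension and 3 days with 500 nM retinoic acid and, for the ventral factors, 160 to 800 nM of a Smoothened agonist that switches on hedgehog signalling. Nkx6.1 had 2 ChIP libraries, replicate 1 from the YFP3.1 line and replicate 2 from Rosa26-Gli1FLAG, a YFP3.1 derivative, both of a mixed background (C57BL6/J with 129 Sv and also Swiss Webster), precipitated with a cocktail of antibodies. Olig2 was profiled in the same lines and Nkx2.2 only in the derivative, so an Nkx6.1 peak without Nkx2.2 compares lists filed under samples of different lines. Gli3, the hedgehog-dependent factor used here as a readout that did not choose the members, was profiled in 1 ChIP library of cells given no agonist (dorsal in the labels), from a V6.5 line (C57BL/6 X 129/sv) with a 3xFLAG-Avi tag at the Gli3 start codon. Comparisons with Gli3 therefore differ in culture, in line and in factor at once, and these cannot be told apart.

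Each list, with no replicate lists beside it, gives 1 set of 300 bp peaks per factor with no score, and coverage around the Nkx6.1 peaks is given in 3 blocks of columns that name no library. Block 3 of the Nkx6.1 table and block 3 of the Olig2 table held the same value at all 11445 positions compared in 77 pairs of overlapping windows, within 1e-06 units, while no other pair of blocks of these tables agreed at more than 11.1% of positions. The labels name 1 library that belongs to both factors, an input (chromatin sequenced without immunoprecipitation). Blocks are still called by number, since no header assigns them. Peaks are not replicates, so no test was made. Intervals cover counting error only, and read depth is unknown. Positions are on mouse build mm9. The sequences under the peaks and the genes near them were not analysed here.

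The members had sharp, centred coverage in blocks 1 and 2. They are called peaks, and the order of their list follows block 1 (Spearman -0.89 over all 4094 Nkx6.1 peaks). A centred rise in a block used for the calling is fixed by that choice and is not a finding. Which blocks were used is not given. The same limit holds for the shares above the flank given below. Coverage within 250 bp of the centre, in the authors' units, had a median of 8.97 in block 1, with quartiles of 7.06 and 12.1 and a range of 3.30 to 93.9. For block 2 the median was 3.83 (quartiles 2.35 and 6.20, range 0 to 54.8), and for block 3 it was 0.579 (quartiles 0.355 and 0.859, range 0 to 3.16). The medians of blocks 1 and 2 stand well above that of block 3, but each block carries its own scale, with 1 step of 0.522, 0.465 and 0.392 units. The mean profile of members peaked at the centre with 23.3 units in block 1, 29.7 times the mean level beyond 1000 bp, and stayed above 50% of its rise out to 100 bp on either side. In block 2 it peaked at the centre with 8.51 units, 13.5 times that level, and stayed above 50% of its rise over 250 bp. In block 3 the mean rose from 0.518 to 0.670 units, 1.29-fold, and stayed above 50% of that rise over 700 bp. The highest point within 500 bp lay at most 100 bp from the centre at 97.8% of members in block 1 and 89.8% in block 2.

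**Figure D1:**
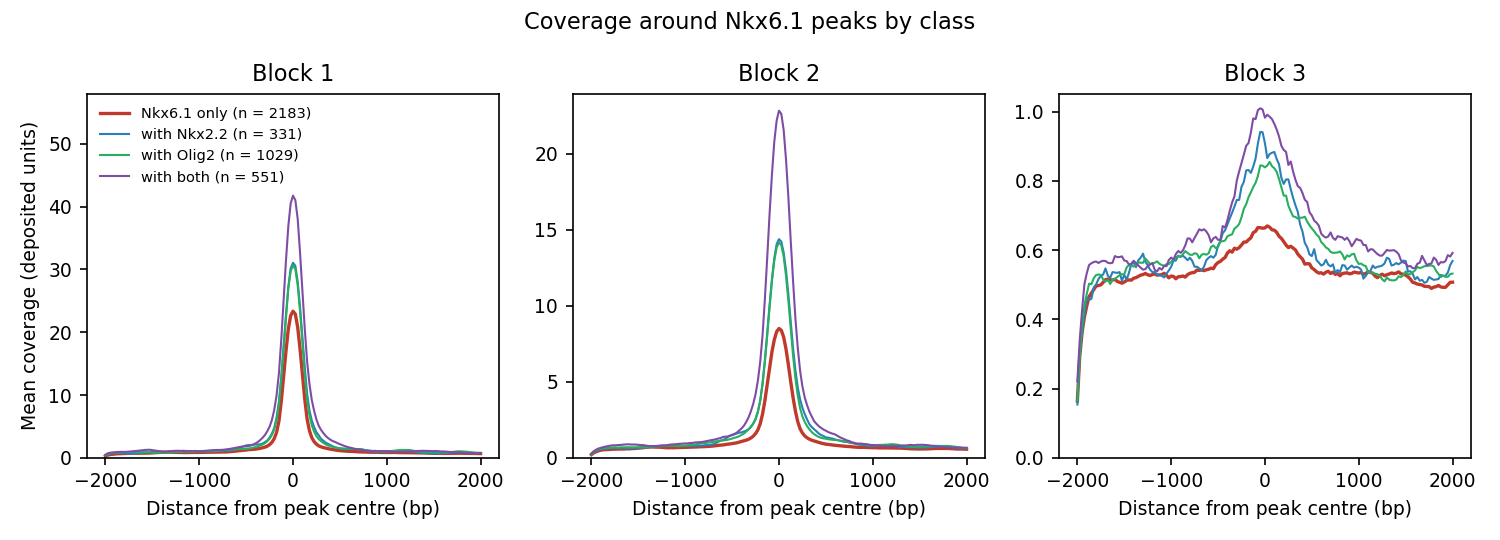
Mean coverage (vertical axis, deposited units, a separate scale per block) against distance from the peak centre (horizontal axis, bp) for 2183 Nkx6.1-only peaks and the 3 classes of shared Nkx6.1 peaks. The Nkx6.1-only line has the lowest maximum in every block, at 23.3, 8.51 and 0.670 units, and the lines for peaks with both other factors are highest.

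A centre above 2 times the flank, the outermost 250 bp at both ends of the window, was reached in block 1 by 2175 of the 2183 members (99.6%, against 99.6% of all Nkx6.1 peaks). In block 2 it was reached by 2069 members (94.8%, 93.8 to 95.6, against 96.3% of all Nkx6.1 peaks), and in block 3 by 784 (35.9%, 33.9 to 37.9, against 39.3%). The whole list includes the members. Among shared peaks alone, the centre was above 2 times the flank at 99.5% in block 1 and 98.1% (97.3 to 98.6) in block 2. In block 3 it was 43.2% (41.0 to 45.5). The shares were thus alike in block 1 and lower in members in blocks 2 and 3. The 114 members that did not reach it in block 2 had a median of 7.12 units in block 1 and 1.36 in block 2, where their median flank was 0.907. Their median place in the list was 2998 of 4094, against 2324 for the other members, so they lay mostly in its lower part.

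Members had less Nkx6.1-table coverage than shared peaks, in each block and against each shared class. In block 1 the median was 8.97 for members, 12.2 with Nkx2.2, 11.3 with Olig2 and 15.6 with both. In block 2 it was 3.83, 6.65, 6.47 and 10.2, and in block 3 it was 0.579, 0.728, 0.728 and 0.840 in the same order. The classes overlap widely: the upper quartile of members in block 1, 12.1, exceeds the median of peaks with Olig2. On the log2(coverage + 1) scale, members averaged 3.42 ± 0.57 in block 1 (SD over 2183 peaks) and shared peaks 3.89 ± 0.77 (SD over 1911 peaks), a difference of -0.48, and in block 2 the difference was -0.79 (2.32 ± 0.79 against 3.11 ± 0.91, SDs over peaks). In block 3 it was -0.16.

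**Figure D2:**
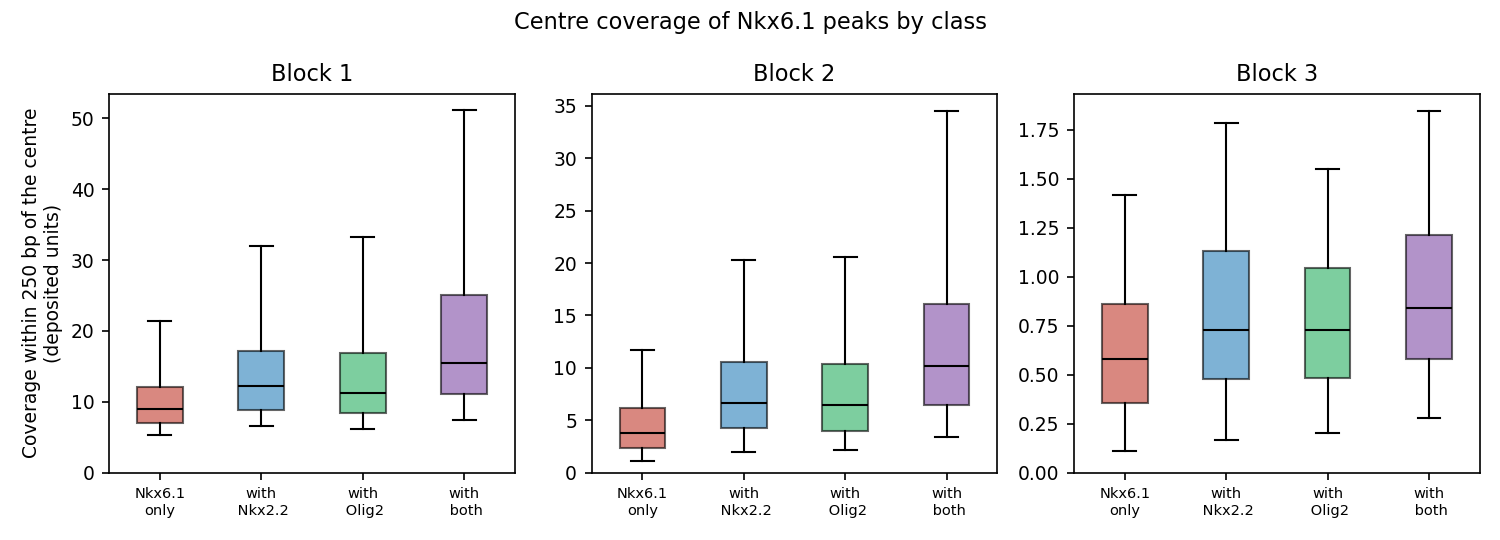
Coverage within 250 bp of the centre (vertical axis, deposited units) by class of Nkx6.1 peak, for each block; boxes are quartiles with the median, whiskers the 5th and 95th percentiles over peaks. Nkx6.1-only peaks have the lowest median in each block (8.97, 3.83 and 0.579), with wide overlap between classes.

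The gap was wider in block 2 than in block 1, and it remained among peaks of like block 1 coverage. The list order follows block 1, and block 1 is a single reading per peak. Like values in it therefore do not make the classes alike in underlying coverage. The part of this in the remaining gap was not tested. All 4094 peaks were divided into quartiles by block 1. In the lowest, where members had a median of 6.52 in block 1 and shared peaks 6.73, the block 2 medians were 2.63 (n = 758) and 3.80 (n = 266). In the second they were 3.73 and 5.07, in the next 4.73 and 6.98, and in the highest 7.78 (n = 315) and 12.9 (n = 708). The difference in mean log2(block 2 + 1), members minus shared peaks, was -0.44, -0.31, -0.46 and -0.68 from the lowest to the highest quartile. In the highest quartile block 1 was itself higher in shared peaks, with medians of 22.3 and 18.4. Block 2 exceeded block 1 at 5.50% of members and at 11.9% of shared peaks. Across members the Spearman correlation of blocks 1 and 2 was 0.53 (n = 2183 peaks, which share their libraries), and it was 0.67 across shared peaks. Block 3 was also lower in members in each of these quartiles (0.523 against 0.672 in the lowest, 0.672 against 0.822 in the highest), and the part of this in the block 2 gap was not tested.

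The order of the deposited list follows block 1. A peak's place in it had a Spearman correlation of -0.89 with block 1, -0.52 with block 2 and -0.14 with block 3 (n = 4094 peaks). Members became more frequent down the list. They made up 25.9% (21.9 to 30.3) of the first decile, 41.6% of the second, 54.5% of the fifth and 66.3% (61.5 to 70.7) of the last. The first decile nonetheless held 106 members, and 315 members had block 1 coverage in the highest quartile of the whole list.

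**Figure D3:**
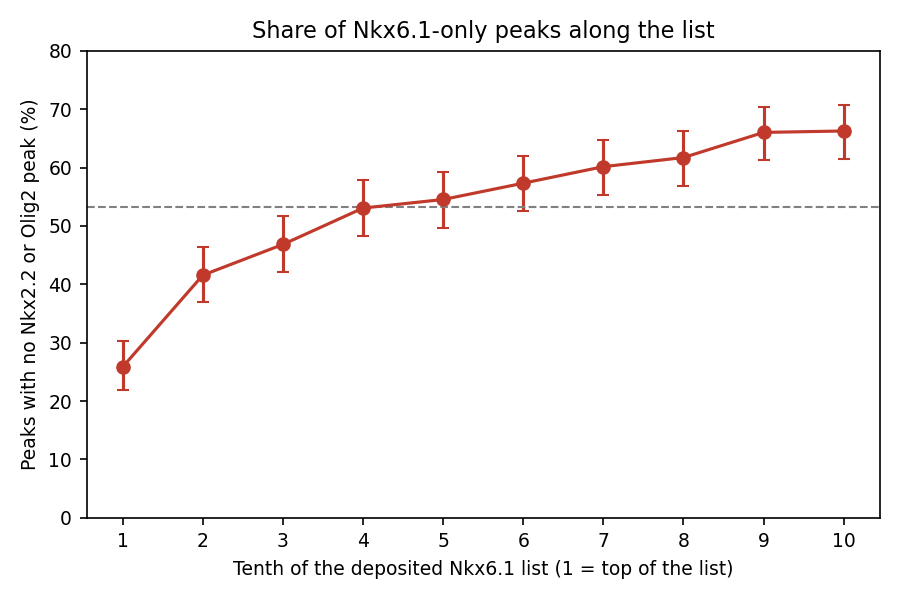
Share of Nkx6.1 peaks with no Nkx2.2 or Olig2 peak (vertical axis, percent, with 95% Wilson intervals) in each decile of the deposited list (horizontal axis, 1 is the top). The share climbs from 25.9% to 66.3%, and the dashed line marks 53.3%, the share in the whole list.

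The members with the highest coverage, ranked on the mean of log2(coverage + 1) over blocks 1 and 2, stood in the first decile of the list. All but the member on chromosome 1 lay above the 95th percentile of shared peaks in block 1, 40.6 units. The first, on chromosome 16 at 94853664 to 94853963, had 88.7, 54.8 and 1.23 units in blocks 1 to 3, and its nearest Nkx2.2 and Olig2 peaks were 62616 and 92288 bp away. The second, on chromosome 4 at 8794996 to 8795295, had 93.9, 34.5 and 0.766 units, with Olig2 17323 bp and Nkx2.2 68303 bp away. The third, on chromosome 8 at 12325118 to 12325417, had 87.7, 34.9 and 1.85 units, and its flank was also raised, to 2.90 units in block 1. These 3 peaks stood at places 6, 4 and 8 of the list.

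The next 7 were lower and differed in how blocks 1 and 2 compared. On chromosome 11 at 88029650 to 88029949 the values were 61.4 and 27.9, and on chromosome 6 at 21899898 to 21900197 they were 55.3 and 28.0. The member on chromosome 4 at 130443197 to 130443496 had 79.4 units in block 1 but 12.9 in block 2, while that on chromosome 1 at 128622880 to 128623179 had 32.6 and 26.7. The others were on chromosome 19 at 49356867 to 49357166 (41.5 and 27.7), chromosome 15 at 102899641 to 102899940 (59.9 and 16.0) and chromosome 7 at 86739843 to 86740142 (55.3 and 13.8). None of these 10 overlapped a Gli3 peak, which says little, since 18 of all 2183 members did (0.825%). In the highest quartile of members by the same measure it was 9 of 546 (1.65%). The peak on chromosome 15 was also among the 5 members outside chromosome 18 with the highest block 3 coverage (2.35 units). The highest block 3 value outside chromosome 18 was 2.67, on chromosome 1 at 120218193 to 120218492, where blocks 1 and 2 held only 8.15 and 5.85. At the other end, the member on chromosome 17 at 90955841 to 90956140 had 4.70 and 0 units in blocks 1 and 2, and 0.990 in block 3. It and a peak on chromosome 1 at 77022362 to 77022661 were the 2 members with no block 2 coverage within 250 bp of the centre.

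Most members lay far from any called peak of the other ventral factors. The median distance between centres was 43909 bp to the nearest Olig2 peak and 120191 bp to the nearest Nkx2.2 peak. Shared peaks of the same list that lacked Nkx2.2 had a like distance to it, with a median of 105759 bp, and those that lacked Olig2 had a median of 35323 bp to Olig2. Of the members, 7.79% lay under 1 kb from either factor, 18.7% from 1 to 10 kb, 52.1% from 10 to 100 kb and 21.4% beyond. In block 1 coverage changed little with this distance: the medians were 9.81, 9.07, 8.97 and 8.57 from the nearest to the farthest group. Block 2 stood at 5.46 in the nearest group and between 3.66 and 3.92 in the others. Block 3 went from 0.700 in the nearest group to 0.486 in the farthest.

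At the border of the rule, members and shared peaks were alike. The 28 members whose edge was under 50 bp from an Nkx2.2 or Olig2 peak had medians of 12.0, 8.01 and 0.691 units in blocks 1 to 3, and the 36 shared peaks with an overlap of 1 to 50 bp had 12.4, 7.97 and 0.803. Outside chromosome 18, the member closest to the rule's limit was on chromosome 9 at 31861832 to 31862131. It was separated from an Olig2 peak by 1 bp and had 5.19 and 7.29 units in blocks 1 and 2. The shared peaks closest to the limit, again outside chromosome 18, overlapped an Olig2 peak by 2 bp. They were on chromosome 2 at 57230661 to 57230960 (31.3 and 15.2 units) and on chromosome 10 at 50977211 to 50977510 (28.5 and 24.8 units).

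Members near an Olig2 peak carried more Olig2-table coverage than positions equally far from that peak on its other side. Where a member lay 300 to 1550 bp from an Olig2 peak, the profile of that Olig2 peak reached over the member, and it could be read both there and at the mirror position, the same distance on the other side of the Olig2 peak. This could be done at 187 members, of which 174 had a mirror position clear of other Nkx6.1 and Olig2 peaks. At these 174, block 1 of the Olig2 table had a median of 3.34 units at the member and 1.25 at the mirror position, and was higher at the member in 148 (85.1%, 79.0 to 89.6). Block 2 had medians of 3.59 and 0.946 and was higher at 153 (87.9%, 82.3 to 92.0). Block 3 leaned the same way by less, with medians of 0.696 and 0.574 and a higher value at 100 (57.5%, 50.0 to 64.6). The part of block 3 in the other values was not tested. The level at the members stayed below that at the neighbouring Olig2 peaks themselves, whose medians were 11.9 and 10.8 units in blocks 1 and 2.

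The difference was also present at the members farther from the Olig2 peak. At the 95 members 600 to 1550 bp away, block 1 was higher at the member in 76 and block 2 in 83, with medians of 2.19 against 0.895 and 2.34 against 0.561, while block 3 was higher in 52. Closer in, the member on chromosome 6 at 75657665 to 75657964 lay 311 bp from an Olig2 peak. It had 20.4 Olig2-table units in block 1 and 13.3 in block 2, against 4.43 and 1.33 at the mirror position. The Olig2 peak itself had 25.1 and 10.8, but at this distance its reading window overlaps that of the member, so like values are partly built in. The others of the 5 named members nearest the overlap limit differed less from their mirror positions. On chromosome 14 at 22071844 to 22072143 the values were 6.74 and 5.92, against 5.40 and 5.35. In the reverse reading, Nkx6.1-table coverage at the neighbouring Olig2 peaks had a block 1 median of 3.94, against 1.11 on the other side of the member, and was higher in 151 of 174. In block 2 the medians were 2.78 and 0.861, with 145 higher. Block 3 also leaned this way: its medians were 0.765 and 0.539, with 118 of 174 higher at the Olig2 peak, and its part in the other values was not tested.

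**Figure D4:**
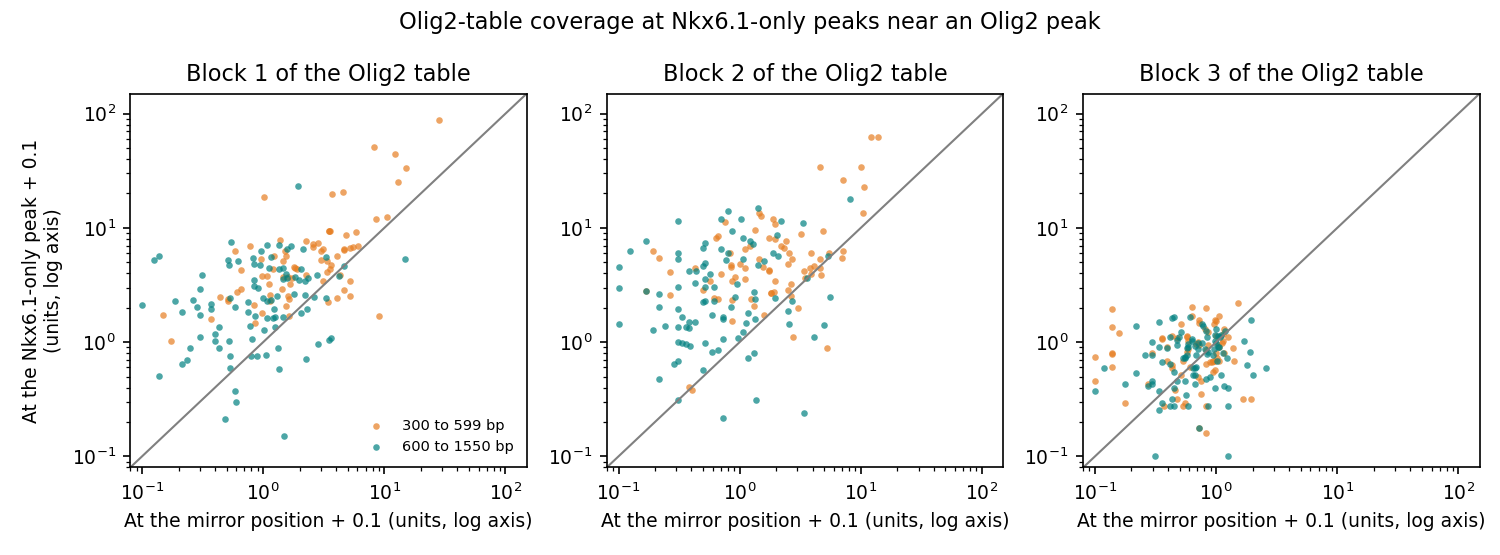
Coverage in the Olig2 table at 174 Nkx6.1-only peaks near an Olig2 peak (vertical axis) against coverage at the mirror position (horizontal axis), both in deposited units + 0.1 on log axes, for blocks 1 to 3; colours give the distance to the Olig2 peak. In blocks 1 and 2, 148 and 153 points lie above the line of equal values, and in block 3, 100.

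The same reading could be made from the Nkx2.2 table at 71 members, 67 of them with a clear mirror position. Block 1 was higher at the member in 50 (74.6%, 63.1 to 83.5), with medians of 5.17 and 1.02 units, and block 2 in 54 (80.6%, 69.6 to 88.3), with medians of 1.97 and 0.929. Block 3 of that table was also higher at the member in 47 (70.1%, 58.3 to 79.8; medians 0.880 and 0.587), and the part of block 3 in the other values was not tested. These readings cover only members close to an Olig2 or Nkx2.2 peak. Members farther away were not read.

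Gli3, which the rule did not use, was rare at the members. Of the 2183, 18 overlapped a Gli3 peak (0.825%, 0.522 to 1.30), against 3.47% of all Nkx6.1 peaks. The share was 3.32% (1.87 to 5.85) of peaks with Nkx2.2, 4.37% (3.28 to 5.80) of peaks with Olig2 and 12.3% (9.85 to 15.4) of peaks with both. The interval for members overlaps none of these.

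The lower share was seen in each quartile of block 1 coverage, although these quartiles do not make the classes alike in block 2. In the quartiles of all Nkx6.1 peaks by block 1, from lowest to highest, Gli3 lay at 0.264%, 1.31%, 0.800% and 1.27% of members and at 6.02%, 4.36%, 6.30% and 8.05% of shared peaks. In the highest quartile this was 4 of 315 members (0.495 to 3.22) and 57 of 708 shared peaks (6.27 to 10.3). The intervals of the 2 classes did not overlap in any quartile, although the counts for members were small, from 2 to 8 peaks. The median distance to the nearest Gli3 peak was 474841 bp for members and 437140 bp for shared peaks, and 19.1% of members and 24.5% of shared peaks had a Gli3 centre within 100 kb.

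**Figure D5:**
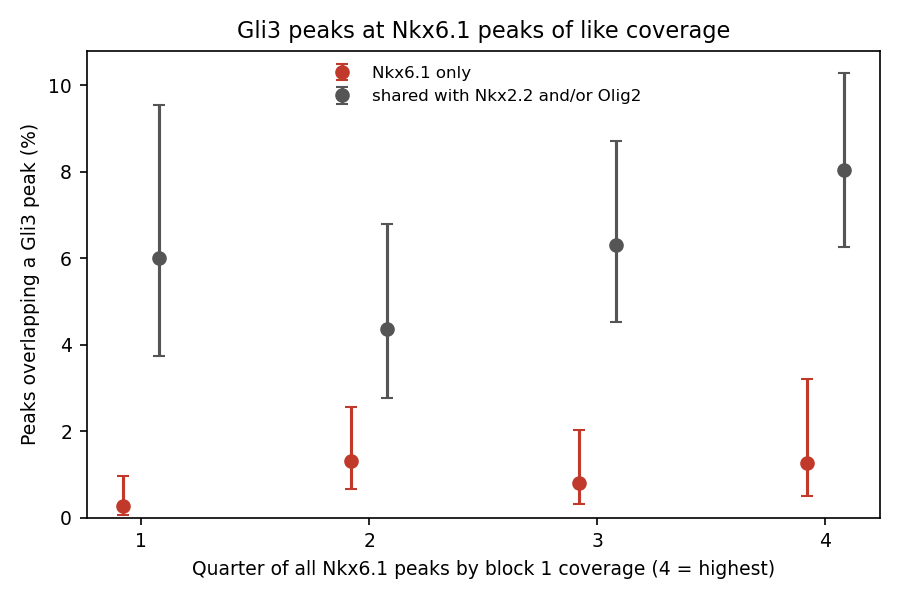
Share of peaks overlapping a Gli3 peak (vertical axis, percent, with 95% Wilson intervals) in quartiles of all Nkx6.1 peaks by block 1 coverage (horizontal axis, 4 is the highest). Nkx6.1-only peaks lie between 0.264% and 1.31%, below the shared peaks (4.36% to 8.05%) in each quartile.

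The 18 members at Gli3 were centred a median of 83 bp from the Gli3 peak, close to the 76 bp of shared peaks. Their median coverage was 9.98, 6.34 and 0.896 units in blocks 1 to 3, against 8.97, 3.81 and 0.579 for members without Gli3. Above the median of all members were 10 of them in block 1, 15 in block 2 and 16 in block 3, and the part of block 3 in the overlap was not tested. On chromosome 18 lay 1 of the 18, which is not ranked here. Of the others, the one with the highest coverage was on chromosome 10 at 60087934 to 60088233, with 28.2 and 21.9 units in blocks 1 and 2. It lay 1 bp from the centre of the Gli3 peak, and was over 150 kb from any Nkx2.2 or Olig2 peak (151253 bp to the nearest). The next were on chromosome 8 at 12165563 to 12165862 (17.8 and 22.5), chromosome 2 at 31496496 to 31496795 (15.8 and 10.4) and chromosome 2 at 119444279 to 119444578 (14.4 and 9.77).

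A further 6 had a mean log2(coverage + 1) over blocks 1 and 2 between 3.22 and 3.49. They lay on chromosome 9 at 96793096 to 96793395, chromosome 8 at 63930433 to 63930732, chromosome 2 at 6717807 to 6718106, chromosome 12 at 91467720 to 91468019, chromosome 13 at 63670371 to 63670670 and chromosome 11 at 35357776 to 35358075. At 3 of these an Olig2 or Nkx2.2 profile could be read. On chromosome 12, 413 bp from an Nkx2.2 peak, the Nkx2.2 table had 11.0 and 6.70 units at the member in blocks 1 and 2, against 5.52 and 0.707 at the mirror position. On chromosome 13, 1470 bp from an Olig2 peak, the Olig2 table had 5.47 and 11.0 units at the member, against 3.18 and 3.20. On chromosome 9, 1330 bp from one, it had 1.53 and 4.07 units, against 0.982 and 0.281. In each of the 3, both blocks were higher at the member. The remaining 7 named members at Gli3 had lower coverage and lay on chromosome 15 at 73986644 to 73986943, on chromosome 7 at 133792564 to 133792863, 77897611 to 77897910 and 100228250 to 100228549, on chromosome 14 at 22807096 to 22807395, on chromosome 9 at 79641058 to 79641357 and on chromosome 1 at 74150424 to 74150723. The lowest of them, on chromosome 7 at 100228250, had 5.69 and 0.576 units.

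Members were scattered more thinly than shared peaks. Another Nkx6.1 peak of any class lay within 10 kb of 11.8% of members and 18.1% of shared peaks, and another peak of its own class within 10 kb of 6.41% of members and 12.2% of shared peaks. This was so although members are the larger class. Of the 100 kb windows outside chromosome 18 that held a member, 1697 held 1, 162 held 2, 20 held 3 and 1 held 4. The fullest, on chromosome 8 from 12000001 to 12100000, contained 4 members and no peak of Nkx2.2, Olig2 or Gli3. This depends on the window's edge, since an Olig2 peak lay 15106 bp from its member at 12087482. A peak of these factors was held by 1004 of the 1697 windows with 1 member and by 118 of the 162 with 2. Of the 20 windows with 3 members, 17 held at least 1 such peak and 3 held none. Those on chromosome 1 from 39700001 and from 133000001 are among the 3 with none. The one on chromosome 16 from 74300001 held 5 Nkx2.2 and 2 Olig2 peaks.

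The window on chromosome 8 belongs to a longer stretch, chosen here after its values were seen, in which 9 Nkx6.1 peaks lay between 12030493 and 12388729, a span of 358 kb. Of these, 6 were members, including the third strongest outside chromosome 18 and the second strongest at Gli3 outside it. Blocks 1 and 2 compared differently across its members. The member at 12050072 had 30.3 units in block 1 and 3.08 in block 2. That at 12087482 had 17.4 and 1.62, and that at 12165563 had 17.8 and 22.5. The other members had 11.9 and 8.09, 10.4 and 8.24, and 87.7 and 34.9. The 3 shared peaks of the stretch had 21.0 to 42.6 units in block 1.

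The share of Nkx6.1 peaks that were members ranged from 45.6% (39.4 to 51.9) on chromosome 12 to 60.8% (54.3 to 67.0) on chromosome 3. On X it was 60.8% (47.1 to 73.0). The intervals of chromosomes 12 and 3 did not overlap. These were picked as the lowest and highest after the values were seen, so this is no test of a difference between chromosomes. The X chromosome held 31 members, with a block 1 median of 7.08 against 8.99 on the autosomes. At the right flank of these members coverage averaged 0.434, 0.546 and 0.140 units in blocks 1 to 3, against 0.711, 0.593 and 0.502 on the autosomes. Over all 51 Nkx6.1 peaks of X the block 3 flank was 0.245, against 0.523 on the autosomes.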

How the data were processed

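Members and lists were chosen with earlier results of these data known. The authors deposited the peak lists as chromosome, start and end without a score, and coverage tables with, per the file headers, a value every 25 bp out to 2000 bp on both sides of a peak; 3 such blocks stand side by side, none named. Bowtie2 2.2.4, HOMER and mm9 are listed in the submitters' processing notes; which made which file, the scaling, the threshold and any pooling are not given in the sources used here. Row i of a table was matched to line i of its list. Peaks overlapped at 1 shared bp or more. Centre coverage is the mean over 250 bp on either side, and flank coverage that over the last 250 bp at both ends; logs used log2(coverage + 1). Readings from a neighbour's profile used 250 bp on each side, with centres at most 1550 bp apart, and left out mirror positions within 300 bp of another Nkx6.1 peak or another peak of that factor. Intervals are 95% Wilson intervals. Overlap, distances and profile readings were tested on simulated data with Python 3.11.15, numpy 2.4.6, pandas 2.3.3 and scipy 1.17.1. The simulated profiles were read with a window of 100 bp and held no neighbour under 600 bp away. Readings with 250 bp on each side, and those at closer neighbours, were therefore not tested in this way. Named regions were the 10 members of highest and 3 of lowest coverage in blocks 1 and 2, the 5 of highest block 3, all at Gli3, the 5 nearest the overlap limit on each side and the fullest 3 windows, of which the text gives those that add a value; regions of chromosome 18 were counted but not named. Motif and gene steps, planned for a genome of the files' build, were not run.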

Additional observations from a re-analysis of the deposited data

How the results depend on the processing

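The mirror position and the settings of the neighbour readings were chosen after seeing the data; the other alternatives were planned. Of 49 values recomputed under alternatives, 39 stayed within their limits (the 95% interval for shares, 1.5 times for counts, medians, the log2 difference and the correlation), 10 moved and none changed direction. The number of members lay between 1458 (47.5% of 3070 peaks, without the lowest 25% of each list by coverage) and 2525 (centres within 100 bp counted as shared). A window of 100 bp raised the median of members to 15.5 in block 1 and 5.79 in block 2. With the right flank alone, 99.1%, 92.3% and 38.5% of members were above 2 times the flank in blocks 1, 2 and 3; above 4 times the flank were 97.3%, 81.2% and 15.1%, and with 0.1 added to both levels 30.0% were above 2 times in block 3. Gli3 centres within 1000 bp were found at 1.47% of members (and at 7.95% of shared peaks). The difference between members and shared peaks lay between -0.79 (block 2 alone) and -0.48 (block 1 alone, and also all 3 blocks). No paired analysis was possible because each factor has 1 peak list and the coverage columns carry no replicate number. Leaving out replicates was replaced by single blocks, and a stricter threshold of the authors could not be applied, since the lists hold no score. Read depth is unknown, which limits what low values in block 2 can show.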
